A study of Mus musculus with 9 samples.

Results

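Transforming growth factor beta (TGF-beta) genes were examined in 9 orthotopic Hepa1-6 liver tumors of mice given an anti-PD-1 antibody or PBS. The genes were 10 of the 52176 gene symbols in the tumors' expression tables: the ligands Tgfb1, Tgfb2 and Tgfb3, the receptors Tgfbr1 and Tgfbr2, the latent TGF-beta binding proteins Ltbp1 and Ltbp2, the targets Tgfbi and Ccn2, and the feedback inhibitor Smad7. They were chosen by name, as an entry of the tables whose gene name, split at commas, was one of these symbols. Each gene had exactly 1 such entry in every tumor, and 0 of the 10 shared that entry with another gene, so no FPKM value (fragments per kilobase of transcript, scaled to the mapped fragments) had to be summed or split.

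Hepa1-6 is a hepatoma line derived from the C57L mouse, grown here in the liver of C57BL/6 mice that were 6 to 8 weeks old at purchase. PBS or anti-PD-1 antibody, which blocks an inhibitory receptor of T cells, was injected intraperitoneally 5 times at intervals of 4 days, from day 10 to day 26, and tumors were taken on day 27. The tumors of PBS-treated mice, of mice nonresponsive to the antibody and of mice responsive to it made up groups of 3 tumors each, from 3 mice of the same strain. The nonresponsive tumors were the 3 largest and the responsive ones the 3 smallest after antibody treatment, with intermediate tumors left out, so that response and tumor size cannot be told apart in these groups. All tumors came from 1 cell line, and whole tumors freed of surrounding tissue were sequenced.

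TGF-beta ligands are secreted as latent complexes that latent TGF-beta binding proteins tether to the extracellular matrix and from which integrins can release the active cytokine. The active ligand binds TGFBR2, which recruits and phosphorylates TGFBR1, and this kinase in turn phosphorylates the transcription factors SMAD2 and SMAD3. In the liver the pathway is known for activating stellate cells and for matrix deposition, and in tumors for restraining T cells.

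The tumors differed in composition in ways that touch several values. PBS tumor 1 stood apart, with correlations of log2 values of 0.642 to 0.852 with the other tumors and the lowest summed FPKM of 12 hepatocyte markers, at 424 against 3348 to 20687 in the 6 antibody-treated tumors. The 7 pancreatic acinar markers summed to 1601 FPKM in nonresponsive tumor 2 and to 11.1 to 18.1 in the other tumors, where 4 to 6 of the 7 were listed at 0. Skeletal muscle markers summed to 265 FPKM in nonresponsive tumor 3 and to 5.39 to 94.0 elsewhere (Mylpf at 89.0 and Tnnt3, whose entry also names Lsp1 in some tumors, at 56.5 in that tumor). Tnnt3 was higher still in responsive tumor 2, at 74.8 FPKM, where Mylpf was listed at 0. Afp, the fetal liver protein that marks hepatoma cells, lay at 0.321 FPKM in nonresponsive tumor 1 and 0.646 in responsive tumor 1, against 4.40 to 56.5 in the other 7 tumors, so that this marker of the labelled cell line was near 0 in 2 tumors. Hepatocyte transcripts were otherwise plentiful, with Alb at 173 to 5041 and Serpina1a, whose entry names its close copies in some tumors, at 28.5 to 3623 FPKM. The remaining lists were present in every group: sums ran from 97.6 to 233 FPKM for endothelial markers (Pecam1 at 23.8 to 62.7, Egfl7 at 20.7 to 60.9), from 70.7 to 629 for platelet markers (Pf4 at 56.2 to 604, Ppbp at 3.27 to 26.5) and from 11.3 to 108 for the 6 hepatoma and fetal liver markers (H19 at 2.87 to 39.3). Entries of Egfl7 also named Dipk1b, Gm20532 and Mir126a, and those of H19 also named Mir675. Macrophage, fibroblast and T cell markers are given with each comparison. Relative depth, read from the steps between low FPKM values, was 0.935 to 1.065 times that of PBS tumor 1, and the total number of reads was unknown. Entries without a gene name held a share of the summed FPKM that varied widely, at 81.5%, 50.3% and 19.2% for PBS tumors 1, 2 and 3. Each nonresponsive tumor (72.1%, 70.4%, 73.2%) had a larger such share than any responsive tumor (55.1%, 49.3%, 21.0%). The part of this share in the group differences was not tested.

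By mean level over the 9 tumors, per length of transcript, the order was Tgfbi (157 FPKM), Tgfb1 (98.6), Ccn2 (78.6), Tgfbr2 (49.7), Ltbp2 (25.6), Tgfb3 (20.0), Tgfbr1 (17.6), Smad7 (15.1), Ltbp1 (4.92) and Tgfb2 (2.75). Of the neighbors in this order, Smad7 and Ltbp1 kept their places in 9 of 9 tumors, and every other pair of neighbors changed places in at least 1 tumor. Ltbp2 exceeded Tgfb3 in 4 of 9 tumors and Tgfb3 exceeded Tgfbr1 in 5, so these neighbors did not differ beyond their spread. The most even gene was Tgfb1, whose highest tumor was 1.43 times its lowest, followed by Tgfbr1 at 1.56 times and Tgfbr2 at 1.74 times. Tgfbi spanned 6.87 times, Ltbp2 6.72 times, Tgfb2 5.64 times and Ccn2 5.49 times. The standard deviation was largest among the nonresponsive tumors for 7 of the 10 genes.

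**Figure D1:**
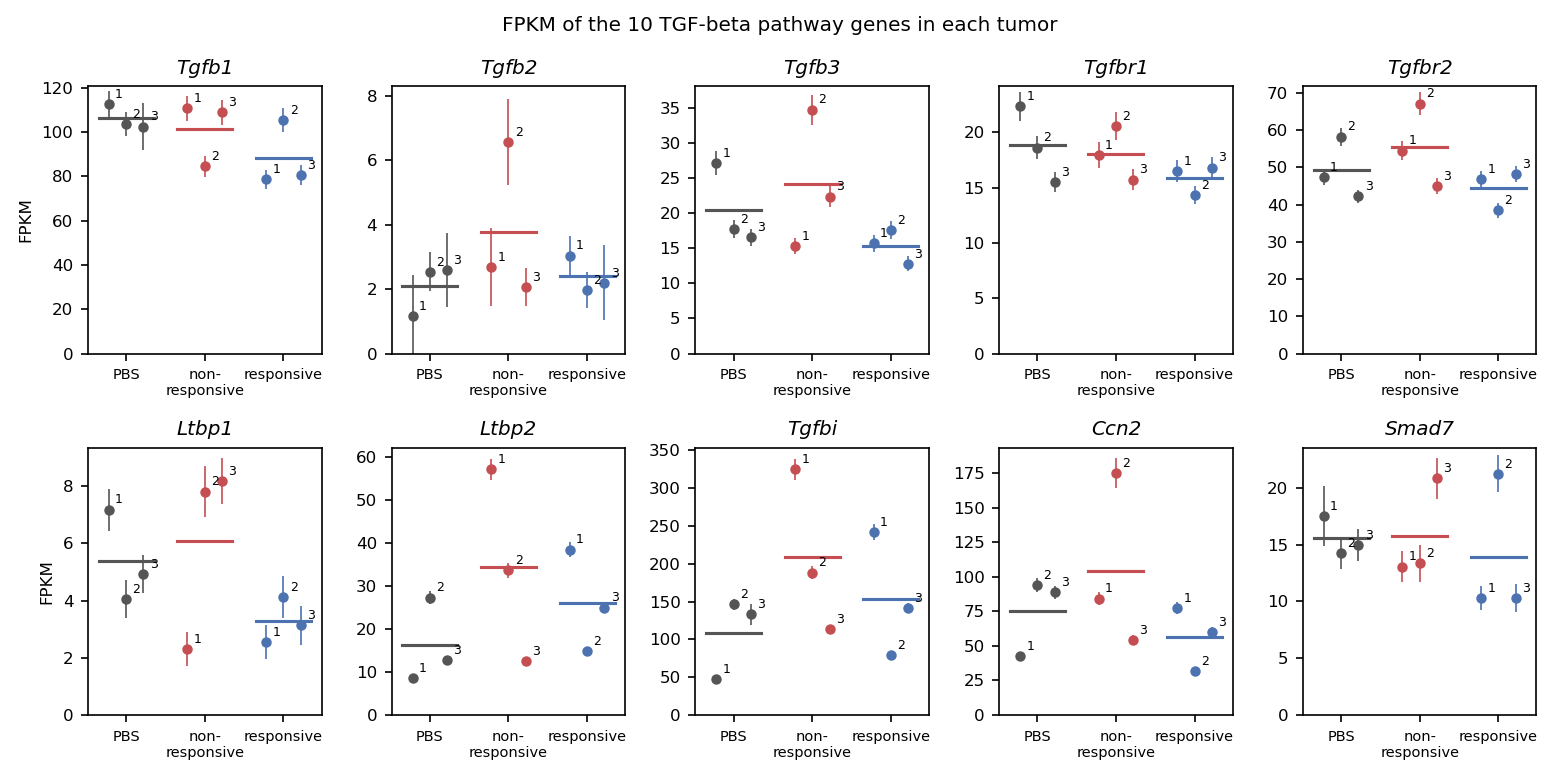
FPKM of the 10 genes (linear axis from 0) in each tumor; points are tumors numbered within their group, thin vertical lines the 95% interval Cufflinks gives for that tumor, and horizontal lines the mean of 3 tumors. The 3 groups overlap in each panel, and nonresponsive tumor 2 is the highest point for Tgfb2, Tgfb3, Tgfbr2 and Ccn2.

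Tgfb1, the ligand made by many immune and stromal cells, was the most abundant ligand in each tumor. It was present at 113, 104 and 102 FPKM in PBS tumors 1, 2 and 3, at 111, 84.5 and 109 in nonresponsive tumors 1, 2 and 3, and at 78.7, 105 and 80.6 in responsive tumors 1, 2 and 3; all values below are in this order of tumors. Responsive tumors 1 and 3 were the lowest of all, while responsive tumor 2 lay among the PBS tumors, so the groups overlapped. Group means were 106 ± 5.62 (SD, n = 3) for PBS, 101 ± 14.6 for nonresponsive and 88.2 ± 14.9 for responsive tumors. The ratio of Tgfb1 to Tgfb3 ran from 2.43 in nonresponsive tumor 2 to 7.21 in nonresponsive tumor 1, so both ends of its range lay in the nonresponsive group.

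Tgfb2, a ligand that needs the co-receptor betaglycan for tight receptor binding, was near the lower end of what these libraries resolved. Its levels were 1.16, 2.53 and 2.59 FPKM in PBS tumors, 2.68, 6.56 and 2.06 in nonresponsive tumors and 3.04, 1.96 and 2.19 in responsive tumors 1, 2 and 3. Nonresponsive tumor 2 was 2.16 times the next tumor and was the tumor with pancreatic acinar transcripts, whose part in this value was not tested. Cufflinks' 95% interval spanned 29.0% of the value to either side in the median tumor and reached 0 in PBS tumor 1. Tgfb3, the third ligand, was found at 27.2, 17.8 and 16.6 FPKM in PBS tumors, 15.4, 34.8 and 22.4 in nonresponsive tumors and 15.7, 17.6 and 12.8 in responsive tumors. Its highest value was again in nonresponsive tumor 2, and the lowest nonresponsive tumor was below 2 of the 3 responsive ones.

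The receptors varied little. Tgfbr2, the ligand-binding type II receptor, was measured at 47.3, 58.2 and 42.2 FPKM in PBS tumors, 54.5, 67.1 and 45.0 in nonresponsive tumors and 46.8, 38.5 and 48.2 in responsive tumors. Tgfbr1, the type I receptor kinase, was measured at 22.3, 18.6 and 15.5 FPKM in PBS tumors, 17.9, 20.6 and 15.7 in nonresponsive tumors and 16.5, 14.3 and 16.8 in responsive tumors. Responsive tumor 2 was the lowest of all tumors for both receptors, and the groups overlapped for both. Tgfbr2 exceeded Tgfbr1 per length of transcript in each tumor, with means over all tumors of 49.7 and 17.6 FPKM.

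Ltbp1, which binds latent ligand and anchors it in matrix, was measured at 7.18, 4.05 and 4.92 FPKM in PBS tumors, 2.32, 7.81 and 8.18 in nonresponsive tumors and 2.56, 4.13 and 3.13 in responsive tumors. Nonresponsive tumor 1 was the lowest of all tumors and the other two nonresponsive tumors were the highest, so that this group enclosed all others. Ltbp2, a matrix protein of the same family that is not known to hold latent ligand, showed another order. It was measured at 8.51, 27.3 and 12.7 FPKM in PBS tumors, 57.2, 33.6 and 12.5 in nonresponsive tumors and 38.5, 14.8 and 25.0 in responsive tumors. Its highest tumor was nonresponsive tumor 1, where Ltbp1 was lowest, and its lowest was PBS tumor 1.

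Tgfbi, a secreted matrix protein named for its induction by TGF-beta, was measured at 47.3, 146 and 133 FPKM in PBS tumors, 325, 188 and 113 in nonresponsive tumors and 242, 78.9 and 141 in responsive tumors. The highest and second highest values were those of nonresponsive tumor 1 and responsive tumor 1, and PBS tumor 1 was lowest, as for Ltbp2. Ccn2, a matricellular protein also called connective tissue growth factor, was measured at 42.6, 93.8 and 88.7 FPKM in PBS tumors, 84.1, 175 and 54.1 in nonresponsive tumors and 77.4, 31.9 and 59.9 in responsive tumors. Nonresponsive tumor 2 held 1.87 times the Ccn2 level of the next tumor, and responsive tumor 2 the lowest. Smad7, which blocks the receptors and is itself induced by the pathway, was measured at 17.5, 14.3 and 15.0 FPKM in PBS tumors, 13.1, 13.3 and 20.8 in nonresponsive tumors and 10.3, 21.2 and 10.3 in responsive tumors. The responsive group held both the highest and the lowest Smad7 values of all tumors.

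In responsive against nonresponsive tumors, which sets the smallest against the largest antibody-treated tumors, the mean log2 value was lower in responsive tumors for 10 of the 10 genes. Over all 13832 features tested 57.5% were lower, with a median difference in log2(FPKM + 1) of -0.07 against -0.34 for the 10 genes. None of the 10 differences passed a test by limma: 0 had an unadjusted p under 0.05, where 5.49% of all features did, and 0 an adjusted p under 0.05, where 0.116% of all features did. Unadjusted p ran from 0.139 to 0.698 and adjusted p from 0.960 to 0.983. No gene separated the groups without overlap, as 10.5% of all features did. In bulk tumors fewer cells of a type and less RNA per cell cannot be told apart.

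Ccn2 had the largest difference, -0.80 on the log2(FPKM + 1) scale (SE 0.53, 95% interval -2.10 to 0.50, adjusted p = 0.973). It was followed by Ltbp1 at -0.61 (interval -1.71 to 0.49), Tgfb3 at -0.56 (-1.36 to 0.24) and Tgfbi at -0.45 (-1.81 to 0.91). Tgfb2 differed by -0.39, Tgfbr2 by -0.30, Ltbp2 by -0.25, Smad7 by -0.21, Tgfb1 by -0.20 and Tgfbr1 by -0.17. The intervals of Tgfb1, Tgfbr1 and Tgfbr2 did not reach 1 on this scale in either direction, whereas those of the other 7 genes included -1. Exact two-sided permutation tests over the tumors gave p of 0.2 or more for each gene, and 0.1 is the smallest that 3 against 3 tumors allow. A difference that missed the threshold in groups of this size is not shown to be absent.

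Single tumors weighed on these differences. Without nonresponsive tumor 2, the one with acinar transcripts, the Ccn2 difference was -0.35 and that of Tgfb2 0.0042. Without nonresponsive tumor 1 Ltbp1 differed by -1.09 (adjusted p = 0.298) and Tgfb3 by -0.83 (adjusted p = 0.426), both with an unadjusted p under 0.05, while Ltbp2 turned to 0.22. Scaling tumors to an equal sum over named entries moved the median of all features from -0.07 to -0.37 and left the 10 genes lower, with a median of -0.64. That scaling turned the split of features with p under 0.05 from 560 higher and 199 lower to 182 higher and 956 lower. Hepatocyte markers moved with this comparison, 12 of 12 higher in responsive tumors and 6 of them with p under 0.05. Their sums were 11609 to 20687 FPKM against 3348 to 12719. Of all features 4.05% were higher and 1.44% lower at that p. T cell markers were higher for 9 of 9, 2 of them with p under 0.05, with sums of 151 to 208 against 113 to 138. The leading T cell markers were Cd3g, at 29.1 to 39.0 against 25.2 to 26 FPKM, and Trac, at 42.2 to 62.5 against 29.2 to 49.5. Entries of Trac also named Traj segments. Macrophage markers, led by C1qb and C1qc, were lower for 9 of 10, 1 of them with p under 0.05, with sums of 1198 to 1923 against 1358 to 3002. In nonresponsive tumors 1 and 2 C1qb and C1qc shared a single entry, of 869 and 972 FPKM, which these sums count for both genes. Fibroblast markers were lower for 9 of 12, with sums of 2605 to 2884 against 2990 to 5209. Of the hepatoma and fetal liver markers tested 5 of 5 had lower means in responsive tumors, with sums of 11.3 to 68.7 against 30.6 to 108 FPKM, and 1 of them, H19, had a p under 0.05. Endothelial markers had lower means for 8 of 8, with sums of 122 to 172 against 111 to 233, and the 2 skeletal muscle markers tested were both lower, 1 of them, Mylpf, with p under 0.05. The part of these lists in the differences was not tested.

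**Figure D2:**
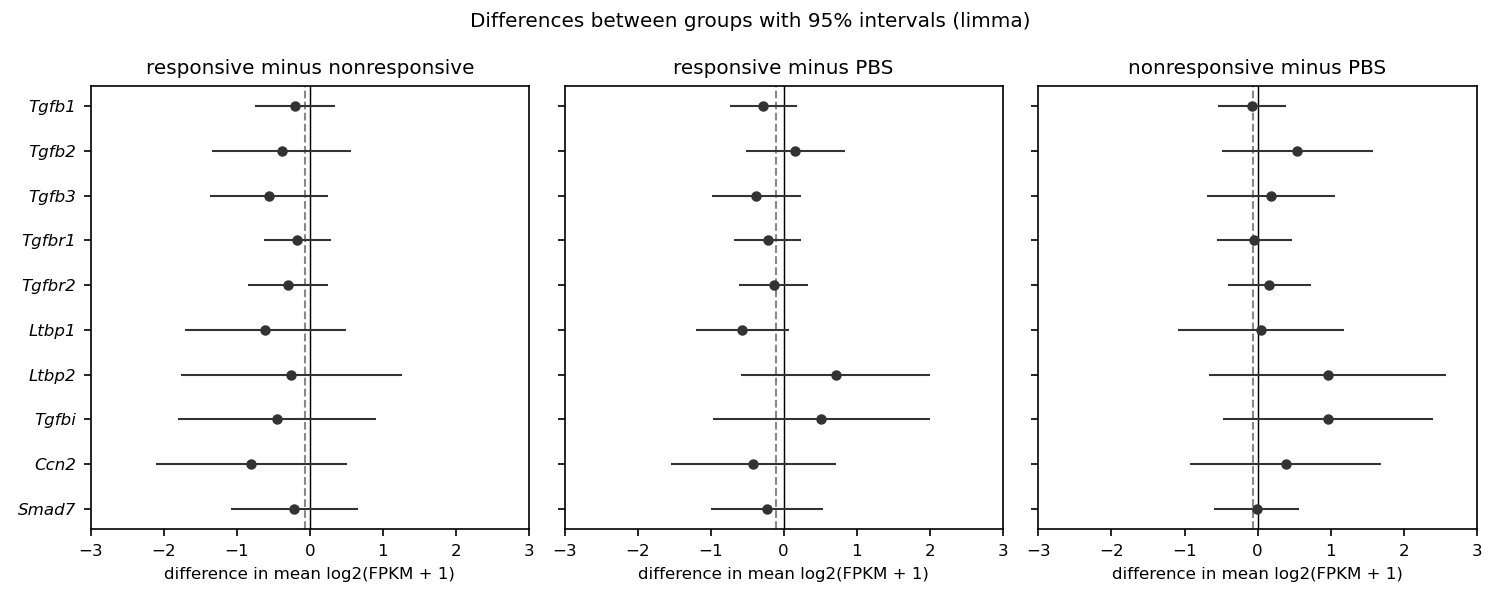
Difference in mean log2(FPKM + 1) between groups for each gene (points) with 95% intervals from limma (horizontal lines), for the 3 comparisons; the solid line marks 0 and the dashed line the median of all features tested. Each interval includes 0, and in responsive minus nonresponsive tumors all points lie below the dashed line.

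In responsive against PBS tumors, which sets the smallest antibody-treated tumors against those of mice given PBS, 7 genes had lower and 3 higher means. Lower means were found for 57.9% of all features. The 3 higher ones were Ltbp2 (0.71, interval -0.58 to 2.00), Tgfbi (0.51, interval -0.97 to 2.00) and Tgfb2 (0.16, interval -0.52 to 0.84). Ltbp1 was lower by the widest margin (-0.57, SE 0.26, interval -1.20 to 0.07, adjusted p = 0.303), then Ccn2 (-0.41), Tgfb3 (-0.37), Tgfb1 (-0.28), Smad7 (-0.22), Tgfbr1 (-0.22) and Tgfbr2 (-0.14). None passed limma's test, with 0 of 10 under an unadjusted p of 0.05 against 17.2% of 13841 features, 0 under an adjusted p of 0.05 against 0.231%, and 0 without overlap against 28% of features. Without PBS tumor 1 Tgfbi differed by -0.0017 and Tgfb2 by -0.08, and without responsive tumor 2 Smad7 differed by -0.55 (adjusted p = 0.159). This and Ltbp1 without PBS tumor 2, at -0.72 (adjusted p = 0.294), were the only such differences with an unadjusted p under 0.05. Tgfb2 turned to -0.0077 under equal-sum scaling and Tgfbr2 to 0.0042 under median-of-ratios scaling. The split of features with p under 0.05 was 1174 higher and 1213 lower as deposited, 1455 and 799 under median-of-ratios scaling, and 815 and 1839 under equal-sum scaling. T cell markers had higher means in responsive than in PBS tumors for 9 of 9, with a median difference of 0.62 and sums of 151 to 208 against 64.6 to 191 FPKM, and macrophage markers for 9 of 10, with a median of 0.52 and sums of 1198 to 1923 against 717 to 1351. Endothelial markers had higher means for 7 of 8 and fibroblast markers for 8 of 12, and of these 4 lists 1 gene, the stellate cell marker Lrat, named after its values were seen, had a p under 0.05. Hepatocyte markers were higher for 12 of 12, with a median of 2.87. The part of these lists in the values of the 10 genes was not tested.

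In nonresponsive against PBS tumors, which sets the largest antibody-treated tumors against those of mice given PBS, 7 genes had higher and 3 lower means. Lower means were found for 55.5% of all features. Tgfbi and Ltbp2 had the largest differences, each 0.96 on the log2(FPKM + 1) scale, with intervals of -0.48 to 2.40 and -0.66 to 2.58. Tgfb2 followed at 0.54 (interval -0.49 to 1.58), Ccn2 at 0.39, Tgfb3 at 0.19, Tgfbr2 at 0.16 and Ltbp1 at 0.04, and Tgfb1 (-0.08), Tgfbr1 (-0.05) and Smad7 (-0.01) had slightly lower means. The last 3 turned to 0.01, 0.04 and 0.07 under equal-sum scaling. None passed the test, with 0 of 10 under an unadjusted p of 0.05 against 3.22% of 13793 features, 0 under an adjusted p of 0.05 against 0.0798%, and 0 without overlap against 8.21%. The smallest p was that of Tgfbi (adjusted p = 0.718). This comparison shares its PBS tumors with the one before and its nonresponsive tumors with the first.

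Several marker lists differed in the same direction in nonresponsive against PBS tumors. Macrophage markers were higher in nonresponsive than in PBS tumors for 10 of 10, with sums of 1358 to 3002 FPKM against 717 to 1351. The sums of nonresponsive tumors 1 and 2 count the entry that C1qb and C1qc share there, of 869 and 972 FPKM, for both genes. In PBS tumors the values of these genes were separate. Of the 10 macrophage markers 3 had a p under 0.05, C1qb and C1qc among them, and 0 an adjusted p under 0.05. C1qc carried the shared value in nonresponsive tumors 1 and 2, set against 127, 261 and 208 FPKM of its own in PBS tumors. Over all features 1.51% were higher with p under 0.05, 0.0798% passed an adjusted p of 0.05, and 55.5% had lower means. Fibroblast markers were higher for 11 of 12, with sums of 2990 to 5209 against 2640 to 4218; Col1a1, Col1a2, Col3a1 and Acta2 of this list are also counted among the TGF-beta targets and Dcn among the latency genes. Hepatocyte markers had higher means for 12 of 12, with a median of 1.4 against 1.04 for macrophage markers and sums of 3348 to 12719 against 424 to 5154 FPKM. Endothelial markers had higher means for 8 of 8, with a median of 0.41 and sums of 111 to 233 against 97.6 to 173, and T cell markers for 6 of 8. None of the hepatocyte, endothelial and T cell markers had a p under 0.05. The part of these lists in the values of Tgfbi and Ltbp2 was not tested. Without nonresponsive tumor 2 the differences were 0.97 for Tgfbi and 0.86 for Ltbp2, but -0.07 for Ccn2 and -0.11 for Tgfb3. Without nonresponsive tumor 3 Ltbp2 differed by 1.54 (adjusted p = 0.358, unadjusted p under 0.05).

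Some of the 10 genes followed each other from tumor to tumor, and others moved in opposite directions. Correlations are Pearson's r of log2(FPKM + 1) over the 9 tumors, given as a description: both genes of a pair come from the same libraries, and share their scaling and tissue makeup. Ltbp2 and Tgfbi had the highest r of the pairs, 0.918 (Spearman's rho 0.95), with 0.899 after group means were removed. Both were highest in nonresponsive tumor 1, then in responsive tumor 1 and nonresponsive tumor 2. Tgfb2 and Ccn2 had an r of 0.868, Tgfb3 and Ltbp1 of 0.843 and Tgfbr2 and Ccn2 of 0.814, the last falling to 0.537 without the 2 tumors farthest from the median. Tgfbr1 and Tgfbr2 had an r of 0.694 over 9 tumors and 0.997 without PBS tumor 1, which had the highest Tgfbr1 of all tumors at an intermediate Tgfbr2. The lowest r of the pairs was -0.69 for Ltbp2 and Smad7, then -0.66 for Tgfbi and Smad7 and -0.65 for Ltbp1 and Ltbp2. Tgfb1 and Ccn2 had an r of -0.41, and of -0.89 after group means were removed.

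**Figure D3:**
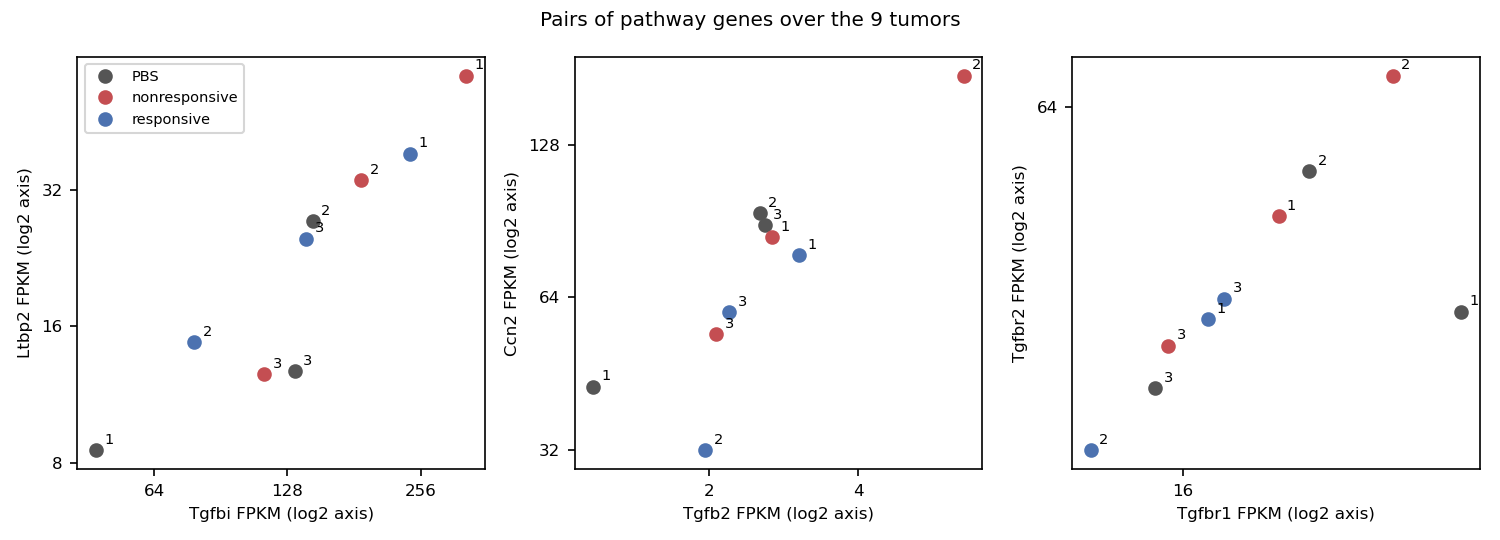
FPKM of 3 pairs of genes (log2 axes) in the 9 tumors, colored by group and numbered within it. Tumors with more Tgfbi have more Ltbp2 in all 3 groups, nonresponsive tumor 2 is the upper end for Tgfb2 and Ccn2, and PBS tumor 1 lies off the line that the other tumors form for Tgfbr1 and Tgfbr2.

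Because Ltbp2 and Tgfbi moved together, the 250 bases before their transcription starts are shown as RefSeq gives them, on the coding strand. Bases in capitals match the SMAD-binding element CAGAC on either strand, so that they read CAGAC or GTCTG. Coordinates are of build GRCm38.p6, with Tgfbi on the plus strand at chr13:56609336-56609585 and Ltbp2 on the minus strand at chr12:84876492-84876741.
Tgfbi: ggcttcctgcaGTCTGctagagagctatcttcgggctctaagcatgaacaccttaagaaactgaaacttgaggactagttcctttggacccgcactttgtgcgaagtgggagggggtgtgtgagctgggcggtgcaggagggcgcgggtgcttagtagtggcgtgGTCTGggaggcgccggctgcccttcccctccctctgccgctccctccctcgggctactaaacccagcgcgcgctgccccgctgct
Ltbp2: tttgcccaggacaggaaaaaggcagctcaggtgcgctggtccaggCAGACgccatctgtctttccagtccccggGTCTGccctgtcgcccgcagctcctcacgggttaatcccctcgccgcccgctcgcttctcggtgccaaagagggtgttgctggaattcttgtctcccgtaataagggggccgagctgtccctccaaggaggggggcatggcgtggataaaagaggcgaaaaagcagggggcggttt
Each held 2 matches. RefSeq's promoter table gave 9 promoters of 7 of the 10 genes, and 7 of these 9 held CAGAC, which 42.2% of 32851 promoters of the same length held. GTCTAGAC, the full SMAD palindrome, was in 0 of the 9 and in 0.167% of all promoters on either strand, the AP-1 motif TGANTCA in 0 and in 6.75%, and the TEAD motif GGAATG in 0 and in 12.6%. TATAAA on the coding strand was in 1 of the 9, that of Tgfb2, and in 7.59% of all promoters. A match of this kind is a description of letters in this window.

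Among up to 10622 features with a mean of at least 5 FPKM, those most like Tgfbi over the tumors were Tyrobp (r = 0.996), an adaptor of myeloid receptors, Igsf6 (0.992) and Pqlc3 (0.990). The 99th percentile of r with Tgfbi over all these features was 0.952. Those most like Ltbp2 were Casp6 (0.987), a caspase, Pbxip1 (0.986) and Adarb1 (0.986), an RNA-editing enzyme, where the 99th percentile was 0.948. Tgfbi had an r of 0.920 with the mean of the macrophage markers, 0.914 with that of the fibroblast markers and 0.891 with that of the endothelial markers, and Ltbp2 had 0.890, 0.900 and 0.986 with the same lists. With the mean of the hepatocyte markers r was 0.699 for Tgfbi and 0.676 for Ltbp2. The receptors and ligands were most like other genes. Tgfbr2 lay closest to Nsd1 (0.965) and Lama4 (0.961), a laminin of vessel walls, Tgfbr1 to Fbxo11 (0.958) and Cblb (0.925), Tgfb1 to Uckl1 (0.974) and Zfyve27 (0.966), Tgfb2 to Lgmn (0.951), a lysosomal protease, and Smim24 (0.946), and Tgfb3 to Ywhab (0.953) and Palld (0.952), an actin-bundling protein. Smad7 lay closest to Ppme1 (0.970) and Ccn2 to Sdcbp (0.948).

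Of 78 further genes of the pathway 77 were read in the same tables, in lists of latency and activation genes, receptors, SMADs and their regulators, targets, and other ligands of the superfamily. The remaining one, the target Fn1, which encodes the matrix protein fibronectin, was left out because Cufflinks marked its estimate as failed in 1 tumor. Signed values in parentheses are differences in mean log2(FPKM + 1) from limma, with its adjusted p, and p without that word is unadjusted. In responsive against nonresponsive tumors 72 could be tested, of which 60 had lower and 12 higher means, with a median of -0.33 against -0.07 over all features. At an unadjusted p under 0.05, 3 were lower (1.44% of all features were) and 1 was higher (4.05% were), and 0 passed an adjusted p of 0.05. Of 24 other target genes 23 had lower means, with a median of -0.64, and this list held the 3 genes with p under 0.05. With nonresponsive tumor 2 left out none of the further genes had a p under 0.05. Of all 13446 features tested then, 210 were higher and 100 lower at that p. With nonresponsive tumor 3 left out 14 further genes had one, while 283 of 13514 features were higher and 339 lower.

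Timp3, an inhibitor of matrix metalloproteinases, lay at 64.8, 88.5 and 76.5 FPKM in responsive tumors and 120, 150 and 116 in nonresponsive tumors (-0.74, adjusted p = 0.886). Loxl2, a collagen cross-linking enzyme whose entry also named Gm21451 and Mir6950 in some tumors, lay at 37.8, 45.4 and 39.2 FPKM against 54.8, 103 and 69.7 (-0.83, adjusted p = 0.886). Ccn1, the relative of Ccn2, lay at 19.9, 28.4 and 34.0 FPKM against 36.3, 56.0 and 41.4 (-0.69, adjusted p = 0.886). These genes were named because their p was under 0.05 and their groups did not overlap. Of the 72 further genes tested 9 did not overlap (12.5%), against 10.5% of all features. The most abundant targets overlapped between the groups: Col1a1, a fibrillar collagen chain, lay at 540, 568 and 644 FPKM in responsive and 1136, 1034 and 619 in nonresponsive tumors. Col3a1 lay at 758, 460 and 684 FPKM against 1400, 1396 and 649, and Sparc, a collagen-binding matrix protein, at 915, 638 and 742 against 1314, 1599 and 651. In all 3 the level of nonresponsive tumor 3 was within the responsive range.

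Genes of latency and activation were lower for 12 of 14 in responsive than in nonresponsive tumors, 0 of them with p under 0.05. Itgb1, the beta chain of many matrix receptors, lay at 130, 130 and 141 FPKM in responsive, 158, 223 and 176 in nonresponsive tumors and 188, 185 and 168 in PBS tumors. Its responsive tumors were below all others (against PBS -0.43, adjusted p = 0.285), and Itgav, the alpha chain of the integrins that release TGF-beta, was likewise lower than in PBS tumors, at 15.5, 19 and 17.2 against 22.8, 23.9 and 21.4 FPKM (-0.38, adjusted p = 0.288). The proteoglycans Dcn and Bgn, which bind TGF-beta, overlapped between the groups, with ranges over all tumors of 498 to 1202 and 310 to 953 FPKM.

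Of the other receptors, 9 of 10 had lower means in responsive than in nonresponsive tumors and 0 had a p under 0.05. Eng, an endothelial co-receptor, was the most abundant, at 17.8, 47.6 and 36.6 FPKM in PBS, 81.7, 59.0 and 32.2 in nonresponsive tumors and 70.3, 35.4 and 59.4 in responsive tumors. Acvrl1 and Acvr1, type I receptors mainly of the bone morphogenetic proteins, ranged from 8.95 to 29.2 and from 10.9 to 16.1 FPKM. Acvr2b, an activin receptor, was lower in responsive than in PBS tumors at 0.804, 0.753 and 1.47 FPKM against 3.56, 1.74 and 2.62 (-0.85, adjusted p = 0.281).

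Smad3, a transducer of TGF-beta signals, spread widely, at 56.6, 33.2 and 45.1 FPKM in PBS, 8.51, 24.8 and 43.1 in nonresponsive tumors and 9.71, 44.2 and 17.5 in responsive tumors. Its lowest tumors, nonresponsive tumor 1 and responsive tumor 1, were those with the highest Tgfbi and Ltbp2 and with Afp near 0, and log2 values of these 2 tumors correlated at 0.900. Of the SMADs and their regulators 13 of 14 had lower means in responsive than in PBS tumors, where 57.9% of all features had, and 3 were lower with p under 0.05, where 8.76% of all features were. The same count, 13 of 14, had lower means in nonresponsive than in PBS tumors, 1 with p under 0.05, and in responsive than in nonresponsive tumors, 0 with p under 0.05, and these comparisons share tumors. The 3 genes were Zfyve9, which anchors SMADs at the receptor (3.30, 4.53 and 3.54 against 12.2, 8.61 and 6.06 FPKM, -1.02), the ubiquitin ligase Smurf1 (9.21, 12.7 and 10.2 against 19.3, 17.5 and 15.2, -0.65) and Trim33 (6.40, 8.42 and 8.87 against 17.0, 12.3 and 10.5, -0.67), with adjusted p of 0.281 for each. Entries of Zfyve9 and Trim33 also named the predicted genes Gm17354 and Gm43061. Smad6, an inhibitory SMAD, was higher in responsive tumors, at 11.6, 7.73 and 8.21 FPKM against 2.13, 5.75 and 4.91 (1.01, adjusted p = 0.281). Ski and Tgif1, corepressors of SMADs, ranged from 23.8 to 34.6 and from 43.2 to 88.1 FPKM. Entries of Tgif1 also named Gm26510 and Gm49904.

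Over the 71 further genes tested in responsive against PBS tumors, 14 were lower and 3 higher with p under 0.05, where 8.76% of all features were lower and 8.48% higher, and 0 passed an adjusted p of 0.05. The 3 higher ones were Smad6, Inhbc and Gdf2. The lower ones included 7 targets, with Itgb1 counted in 2 lists. Loxl2 lay at 67.4, 73.7 and 66.8 FPKM in PBS tumors and was lower in responsive ones (-0.75, adjusted p = 0.281). Timp1 lay at 123, 143 and 106 FPKM against 168, 258 and 199 (-0.74) and Klf10, a TGF-beta-inducible zinc finger factor, at 12.9, 17.0 and 16.6 against 30.0, 22.9 and 24.3 (-0.70), each with an adjusted p of 0.281. These 3 genes were named by the same rule. Of the 71 further genes 22 did not overlap between responsive and PBS tumors (31.0%), against 28% of all features.

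In nonresponsive against PBS tumors 71 further genes were tested, of which 1 was higher and 3 lower with p under 0.05, where 1.51% and 1.71% of all features were, and 0 passed an adjusted p of 0.05. Tagln, an actin-binding protein of smooth muscle and activated fibroblasts whose entry also named Sidt2, was the higher one, at 93.2, 111 and 80.7 FPKM against 61.0, 63.6 and 69.4 (0.54, adjusted p = 0.718). Klf10 at 15.5, 16.6 and 19.8 FPKM in nonresponsive tumors (-0.54) and Zfyve9 at 2.76, 4.13 and 4.67 (-1.01) were lower than in PBS tumors, as was Inhbb, a subunit of activin B, at 8.29, 6.91 and 7.08 against 12.5, 15.9 and 11.1 (-0.74), each with an adjusted p of 0.718. Without nonresponsive tumor 3, 18 of the further genes had a p under 0.05. Of all 13491 features tested then, 708 were higher and 1151 lower at that p.

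Ligands of other branches went their own ways. Inhbc, an activin subunit made by hepatocytes whose entry also named Inhbe in some tumors, was higher in responsive tumors at 20.7, 15.2 and 16.2 FPKM, against 13.6, 6.79 and 3.51 in nonresponsive tumors (1.19, adjusted p = 0.886) and 0, 3.96 and 4.17 in PBS tumors (2.63, adjusted p = 0.281). Gdf2, a bone morphogenetic protein of the liver, lay at 9.75, 4.06 and 5.65 FPKM in responsive and 0.147, 3.04 and 2.69 in PBS tumors (1.47, adjusted p = 0.289). Among PBS tumors both were lowest in tumor 1. Hepatocyte markers moved the same way, 12 of 12 higher in responsive than in PBS tumors and 10 of them with p under 0.05. Of all features 8.48% were higher at that p. Sums of these markers were 11609 to 20687 against 424 to 5154 FPKM, and their part in these values was not tested. Inhbb was lower than in PBS tumors at 4.66, 10.1 and 6.67 FPKM (-0.84, adjusted p = 0.281), and Inhba, a subunit of activin A, lay at 10.1, 6.25 and 11.3 FPKM in responsive, 48.9, 11.8 and 9.85 in nonresponsive tumors and 11.2, 31.1 and 24.0 in PBS tumors. Inhba overlapped between all groups. Bmp1, a procollagen protease despite its name, ranged from 34.8 to 91.3 FPKM, and Bmp4 was at its lowest in nonresponsive tumor 1 (1.77 FPKM) and responsive tumor 1 (2.69), against 7.57 to 24.1 in the other 7 tumors.

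**Figure D4:**
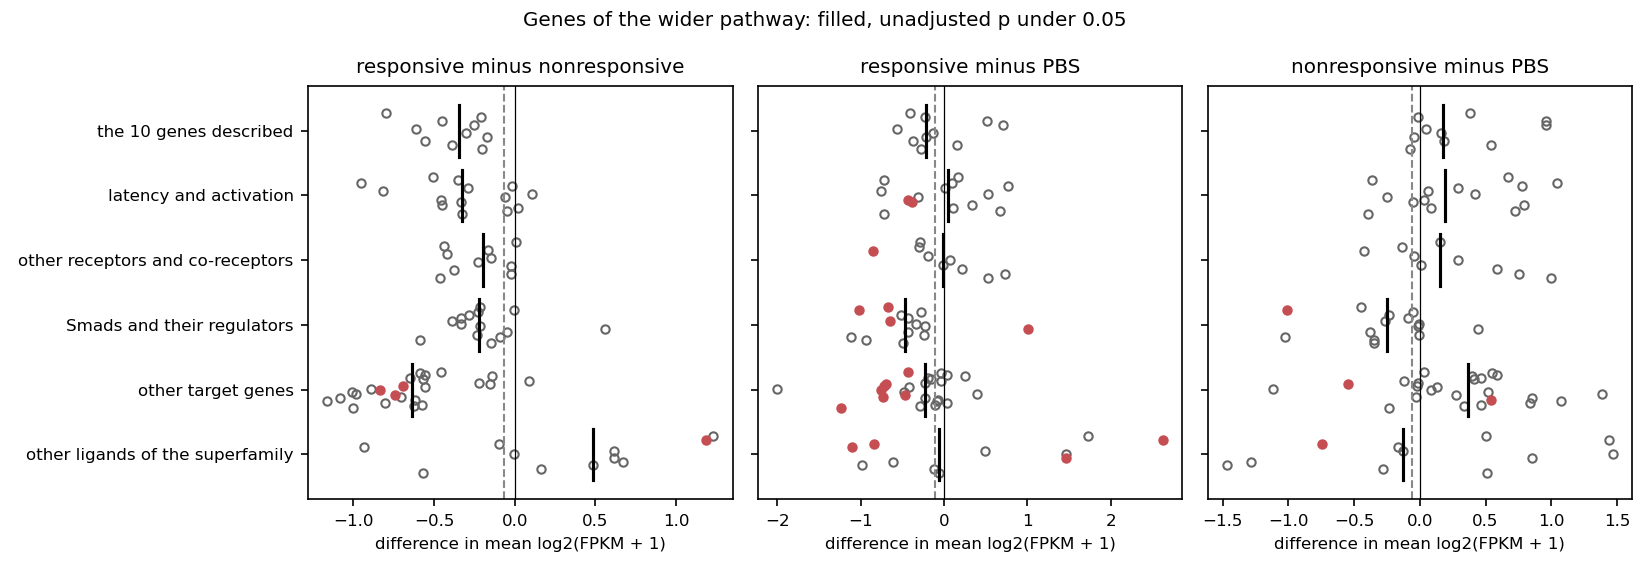
Difference in mean log2(FPKM + 1) for each tested gene of the wider pathway by list (circles, filled where the unadjusted limma p was under 0.05; height within a row only separates points), with the list's median (black bar) and the median of all features (dashed line). In responsive minus nonresponsive tumors 23 of 24 other target genes lie below 0, and 0 of the 10 genes described is filled in any comparison.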

How the data were processed

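RNA was measured in 9 tumors, 3 per group. The authors deposited for each tumor a Cufflinks table of FPKM with 95% intervals, normalized for transcript length and mapped fragments. The submitters' processing notes name Bowtie2 2.2.4, TopHat2 2.1.1 and the build mm8; coordinates of the entries were not used. A table of the authors' own fold changes and p-values was not used. The labels tie each tumor to a group and a number, and tumors come from separate mice.

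Entries were read by gene name; 12.5% of symbols shared an entry in some tumor, and 13 symbols with a failed estimate were left out. Features that reached 1 FPKM in 3 or more of the 6 tumors compared were tested on log2(FPKM + 1), which understates changes of low genes, with limma 3.58.1 (trend, R 4.3.3) and Benjamini-Hochberg adjustment, and called at an adjusted p of 0.05. Exact permutation tests were two-sided (scipy 1.17.1, Python 3.11.15). The steps were tested on simulated data.

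The 10 genes, the 5 further pathway lists and the 9 marker lists were chosen with earlier results of these data known. Of each further list the text names the 3 genes of highest mean FPKM and up to 5 per comparison with p under 0.05 and no overlap, and of the leading 2 genes by mean FPKM of a marker list those tested. Likeness was read among features with a mean of at least 5 FPKM. Some items that these rules select are not reported here. Alternatives were a pseudocount of 0.1, no filter, a filter of 5 FPKM, 3 other scalings, a fit to all 9 tumors, a block for the replicate number, joined loci and each tumor left out. Absolute depth is unknown, so that no counting interval was computed beyond Cufflinks' own.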

Additional observations from a re-analysis of the deposited data

How the results depend on the processing

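With 3 tumors per group, no p below 0.1 was possible from exact permutation, and Tgfb2 and Ltbp1 lay too low for the filter of 5 FPKM in responsive against nonresponsive tumors. Under each of the 15 alternatives per comparison, 0 of the 10 genes and 0 of the further pathway genes passed an adjusted p of 0.05. In responsive against nonresponsive tumors every gene tested was lower under each of the 9 alternatives that keep all tumors. The filters, the fit to all 9 tumors, the block and joined loci leave the difference of these genes unchanged. Only the pseudocount of 0.1 and the 3 other scalings could therefore have changed a direction. With a tumor left out 9 or 10 genes were lower. With equal-sum scaling 1 gene, Tgfbr2, had a p under 0.05, and with a tumor left out 0 to 2 did; in each of the other comparisons 0 to 1 did. The cause of these shifts was not tested.

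Features past an adjusted p of 0.05 numbered 16 in responsive against nonresponsive tumors, 10 without a filter, 8 with a filter of 5 FPKM, 8 with joined loci and 0 to 32 with a tumor left out. They numbered 32 in responsive against PBS tumors, 16 with all 9 tumors in 1 fit, 19 with joined loci and 7 to 49 with a tumor left out, and 11 in nonresponsive against PBS tumors, 5 without a filter, 6 with all 9 tumors in 1 fit, 5 with joined loci and 2 to 30 with a tumor left out. Further pathway genes with an unadjusted p under 0.05 numbered 4 in responsive against nonresponsive tumors, 19 with equal-sum scaling, 7 with all 9 tumors in 1 fit and 0 to 14 with a tumor left out. All features at that p numbered 560 higher and 199 lower as deposited, 182 and 956 with equal-sum scaling and 443 and 337 in 1 fit. With a tumor left out they ran from 207 to 968 higher and 100 to 457 lower. The further pathway genes then numbered 7 to 23 in responsive and 2 to 18 in nonresponsive against PBS tumors. All features then ran from 553 to 1258 higher and 374 to 2685 lower in responsive against PBS tumors. In nonresponsive against PBS tumors they ran from 79 to 708 higher and 137 to 1151 lower.

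Replicate numbers were not taken to pair the tumors. Deviations of same-numbered tumors correlated at 0.475 for responsive and nonresponsive tumor 1, whose log2 values correlated at 0.900. For the other same-numbered tumors deviations correlated at -0.395 to 0.136. With the replicate number as a block, features past an adjusted p of 0.05 numbered 1 in responsive against nonresponsive tumors. They numbered 0 in responsive against PBS and 0 in nonresponsive against PBS tumors. Further pathway genes under an unadjusted p of 0.05 then numbered 6 and 1 in the comparisons with PBS. All features at that p numbered 649 higher and 299 lower in responsive against PBS tumors. In nonresponsive against PBS tumors they numbered 115 higher and 122 lower. At an unadjusted p 0 of the 10 genes passed under the block.

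In nonresponsive against PBS tumors the genes with a lower mean numbered 3, 1 under median-of-ratios scaling, 0 under equal-sum scaling and 1 to 4 with a tumor left out. There Smad7 turned to 0.0027 under upper-quartile, 0.055 under median-of-ratios and 0.070 under equal-sum scaling, Tgfbr1 to 0.021 under median-of-ratios and 0.035 under equal-sum scaling and Tgfb1 to 0.010 under equal-sum scaling. In responsive against PBS tumors Tgfbr2 turned to 0.0042 under median-of-ratios scaling and Tgfb2 to -0.0077 under equal-sum scaling. With a tumor left out, differences ran from -0.83 to 0.22 for Ltbp2 and -0.65 to 0.0042 for Tgfb2 in responsive against nonresponsive tumors, from -0.081 to 0.28 for Tgfb2 and -0.0017 to 0.92 for Tgfbi in responsive against PBS tumors, and in nonresponsive against PBS tumors from -0.14 to 0.048 for Tgfb1, -0.11 to 0.46 for Tgfb3, -0.17 to 0.078 for Tgfbr1, -0.21 to 0.52 for Ltbp1, -0.22 to 0.099 for Smad7 and -0.069 to 0.77 for Ccn2.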
